A study of Homo sapiens with 24 samples.

Results

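Natural killer (NK) cells recognise stressed or transformed cells through activating receptors, and the 9 genes described here encode surface or released ligands of 3 of those receptors. MICA, MICB, ULBP1, ULBP2 and ULBP3 are ligands of NKG2D, PVR (CD155) and NECTIN2 (CD112) are ligands of DNAM-1, and NCR3LG1 (B7-H6) and BAG6 are ligands of NKp30. They were chosen by symbol, and all 9 were found among the 28395 gene identifiers that both count tables list. Their transcripts were followed in a pair of established lines of human myeloma, a plasma cell cancer. MM1.S carries the label p53-WT and JJN3 the label p53-null, and the genotype is given as wild type for both. Each line was kept for 24 h in vehicle, in 500 nM CX-5461, in 50 nM panobinostat, or in both drugs, with 3 libraries in each of the 8 groups. The study asked what lies behind the joint response to the 2 drugs. CX-5461 is an RNA polymerase I inhibitor that stops the making of ribosomal RNA, and panobinostat is a broad histone deacetylase inhibitor. The tables hold RNA counts alone, and surface protein and killing by NK cells were not analysed here. Nothing in the labels tells whether the 3 libraries of a group are separate cultures, and the p-values therefore cover only the spread between libraries, which may be technical.

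The NKG2D ligands are relatives of MHC class I molecules that most healthy cells carry at low levels, and that stress, DNA damage or infection can raise. PVR and NECTIN2 are adhesion molecules of the nectin family, and besides the activating receptor DNAM-1 they bind the inhibitory receptors TIGIT (both ligands) and PVRIG (NECTIN2). In myeloma, drugs that damage DNA and inhibitors of histone deacetylases are known for changing the surface level of several of these ligands.

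The promoters of the 4 ligands with enough counts to be tested are shown because 3 of them (NECTIN2, ULBP1, NCR3LG1) were higher and PVR was lower after panobinostat in MM1.S. Each is the RefSeq window on GRCh38.p14 from 250 bases before to 50 bases after the annotated start, on the plus strand, written 5′ to 3′. Capitals mark matches to the searched motifs. The NCBI Gene identifiers in the tables are 5819 for NECTIN2, 80329 for ULBP1, 374383 for NCR3LG1 and 5817 for PVR. NECTIN2 is at chr19:44846047-44846346, ULBP1 at chr6:149963693-149963992, NCR3LG1 at chr11:17351550-17351849 and PVR at chr19:44643660-44643959.
NECTIN2: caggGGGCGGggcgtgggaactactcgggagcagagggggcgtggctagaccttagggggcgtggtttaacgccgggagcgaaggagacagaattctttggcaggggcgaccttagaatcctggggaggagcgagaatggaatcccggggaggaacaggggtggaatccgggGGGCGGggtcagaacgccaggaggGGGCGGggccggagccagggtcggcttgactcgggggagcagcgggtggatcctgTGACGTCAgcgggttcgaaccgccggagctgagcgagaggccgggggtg
ULBP1: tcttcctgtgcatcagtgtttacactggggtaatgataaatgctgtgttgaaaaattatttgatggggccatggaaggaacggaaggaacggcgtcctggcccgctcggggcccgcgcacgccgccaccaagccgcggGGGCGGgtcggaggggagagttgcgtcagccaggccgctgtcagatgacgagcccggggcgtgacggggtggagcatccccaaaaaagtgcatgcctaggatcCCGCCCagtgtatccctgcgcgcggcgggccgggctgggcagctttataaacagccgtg
NCR3LG1: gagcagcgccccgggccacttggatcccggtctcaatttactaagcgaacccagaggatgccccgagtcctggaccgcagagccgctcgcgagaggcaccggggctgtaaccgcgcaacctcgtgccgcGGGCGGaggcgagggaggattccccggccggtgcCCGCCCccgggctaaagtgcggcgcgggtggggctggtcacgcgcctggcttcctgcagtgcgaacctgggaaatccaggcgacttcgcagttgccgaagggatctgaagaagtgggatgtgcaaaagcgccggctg
PVR: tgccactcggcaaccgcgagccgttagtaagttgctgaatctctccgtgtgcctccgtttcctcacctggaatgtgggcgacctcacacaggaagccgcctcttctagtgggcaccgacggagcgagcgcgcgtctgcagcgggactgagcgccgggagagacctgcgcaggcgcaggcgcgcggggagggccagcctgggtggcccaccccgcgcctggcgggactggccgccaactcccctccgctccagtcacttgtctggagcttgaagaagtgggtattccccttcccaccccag

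The motifs, searched on both strands, were the GC box GGGCGG, the heat shock element GAANNTTC, the CRE core TGACGT, the CCAAT box, the E-box CACGTG and the amino acid response element TGATGCAA. The NECTIN2 window held 3 GC boxes and, just after the start, 2 CRE cores that overlap on opposite strands (bases 252 to 257 and 254 to 259 of the window). The ULBP1 and NCR3LG1 windows held 2 GC boxes each, and the PVR window held no match to any of the 6 motifs. Among the members not shown, ULBP3, at 0 in all 24 libraries, held 6 GC boxes, and MICA, MICB and ULBP2 held 1 each. BAG6 held 0 in its window 1 and 1 in its window 2. Of all 35116 RefSeq promoter windows of this length, 45.0% held a GC box and 7.98% a CRE core, so the GC box is common among promoters in general. A match describes letters only.

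Libraries held 4751893 to 7305069 counts (median 5551876), and the coefficient of biological variation in the fits was 0.107 in MM1.S and 0.154 in JJN3. At this depth 3 counts, the most that a count of 0 allows, correspond to 0.411 to 0.631 CPM in a single library. CPM is the count scaled to the library's total over all genes, and intervals and limits cover counting error only. A fold given as at least a value divides the level counted in the treated group by that limit for the vehicle group. It leaves out the counting error of the treated group. Changes were tested with edgeR's quasi-likelihood test, and a gene is said to have risen or fallen where its p, adjusted by the Benjamini-Hochberg method over all genes tested, was under 0.05. CX-5461 raised CDKN1A, an inhibitor of the cell cycle, by 3.99 ± 0.14 on the log2 scale (SE, edgeR adjusted p = 1.12e-16) in MM1.S, against 0.46 ± 0.20 (edgeR adjusted p = 0.851) in JJN3. All 10 plasma cell markers had counts in both lines, although CD38 had only 7 counts over the 12 JJN3 libraries. Of the 7 NK cell markers, NCR1 was at 0 in all 24 libraries and NKG7 had 1 count in all. NCAM1 (CD56) had 6850 counts over the 12 MM1.S libraries and 118 over the 12 of JJN3. In the same order KLRF1 had 16 and 273, PRF1 47 and 2, GNLY 40 and 0, and KLRD1 6 and 5.

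MICA, MICB and BAG6 cannot be read as expression levels in these tables. MICA summed to 14 counts over the 12 MM1.S libraries and 1 over the 12 JJN3 libraries, and 11 of the 14 lay in a single library, panobinostat replicate 2 of MM1.S. MICB summed to 0 and 1. BAG6, a chaperone gene that nearly all cells use, summed to 14 and 17. The 3 genes lie in a stretch of chromosome 6, from TRIM27 to RGL2 in the RefSeq gene order, in which 94 of 155 protein-coding genes were at 0 in all 24 libraries. Only 1.29% of its genes in MM1.S and 6.45% in JJN3 averaged 10 or more counts per library, against 47.5% and 41.2% of the 80 genes that flank it and 55.5% and 53.2% of all protein-coding genes.

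The stretch was bounded after its values were seen, and it also holds genes that every growing cell uses. RPS18, a ribosomal protein gene, had 41 counts over the 12 MM1.S libraries and DDX39B, an RNA helicase gene, had 0, whereas RPS10, a ribosomal protein gene just outside, had 31750. In JJN3 HLA genes of the stretch had many counts, HLA-DRB1 with 99778 counts, HLA-DQB1 with 29406 and HLA-DQA1 with 21499 over its 12 libraries, while HLA-DRB1 had 21 in MM1.S. Why so few counts lie on the other genes there was not tested. The 3 ULBP genes lie elsewhere on chromosome 6, and 10 to 12 of the 20 nearest protein-coding genes of each averaged 10 or more counts per library in either line. Zero counts of the ULBP genes are therefore not part of that stretch.

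**Figure D1:**
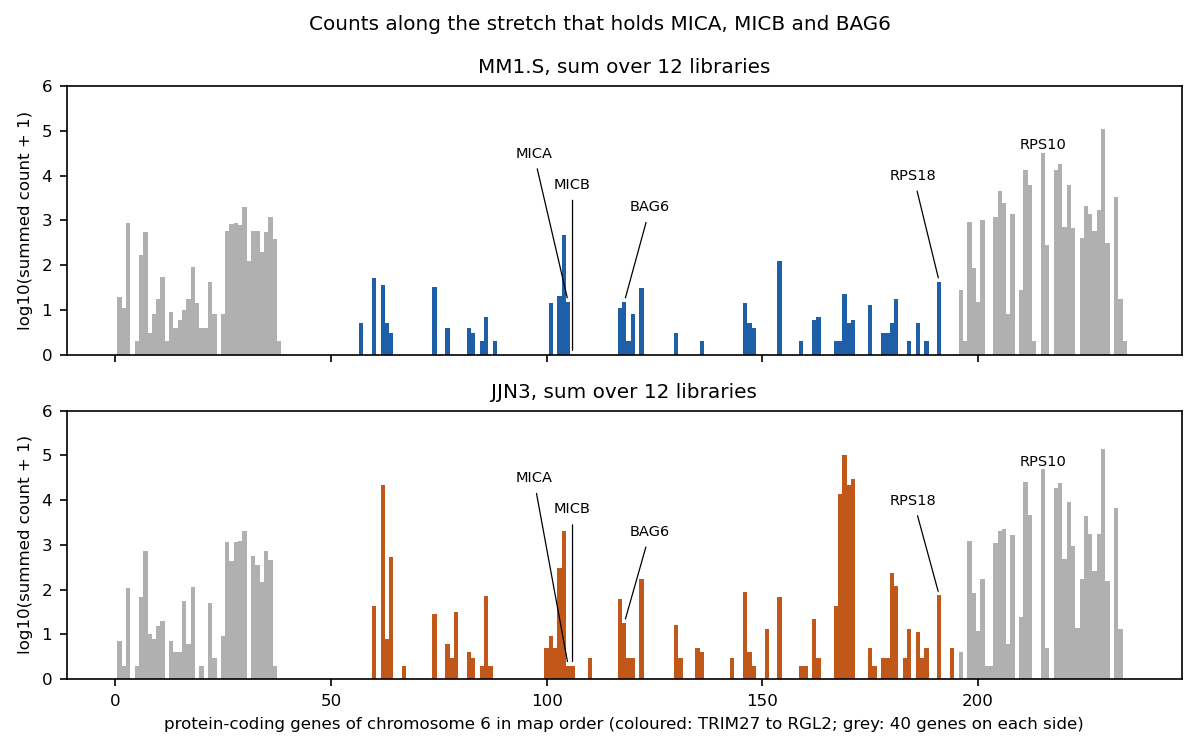
Summed counts of protein-coding genes along chromosome 6, as log10 of the sum over 12 libraries plus 1 (y axis), against their order on the map (x axis), for MM1.S (upper) and JJN3 (lower). Coloured bars are the 155 genes from TRIM27 to RGL2, and grey bars the 40 genes on each side. MICA, MICB and BAG6 have at most 17 summed counts, as do most of their neighbours, although HLA-DRB1 in JJN3 has 99778, while RPS10 outside the stretch has 31750 in MM1.S.

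Among the NKG2D ligands only ULBP1 had counts enough to be tested, and only in MM1.S. It had no count in the 3 vehicle libraries. With CX-5461 it had 3, 6 and 4 counts in replicates 1 to 3, with panobinostat 6, 15 and 4, and with both drugs 12, 30 and 20. All libraries with a drug therefore lay above all vehicle libraries, but the levels stayed low. The means were 0.620 ± 0.210 CPM (SD, n = 3) with CX-5461, 1.58 ± 1.04 with panobinostat and 3.85 ± 1.47 with both.

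Against the most that 3 counts over the vehicle group allow, ULBP1 was at least 3.62-fold higher with CX-5461 (edgeR adjusted p = 0.0198), at least 9.35-fold higher with panobinostat (edgeR adjusted p = 9.46e-05) and at least 22.7-fold higher with both drugs (edgeR adjusted p = 6.09e-07). Because ULBP1 passed the filter on low counts only through its treated groups, its calls are partly set by that filter. The call for CX-5461 was lost without CX-5461 replicate 2 (edgeR adjusted p = 0.0556), without vehicle replicate 1 (0.0634) and without vehicle replicate 3 (0.0678). In these bulk samples, more cells with the transcript and more transcript per cell cannot be told apart.

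ULBP1 counts with both drugs were 6.27 times those with CX-5461 alone (95% counting interval 3.41 to 12.4, edgeR adjusted p = 9.07e-05), with all 3 libraries above. Against panobinostat alone the ratio was 2.43 (1.5 to 4.03), but the groups overlapped, since panobinostat replicate 2 (15 counts) lay above replicate 1 with both drugs (12 counts), and the difference did not pass the test (edgeR adjusted p = 0.114). Without panobinostat replicate 2 the adjusted p was 0.0636.

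In JJN3 ULBP1 was at 0 in all 12 libraries, which allows at most 0.169 to 0.187 CPM per group of 3. MM1.S with both drugs lay at 2.37 to 5.31 CPM, above that limit. The edgeR fit gave no usable standard error for the difference between the lines in the response of ULBP1. DESeq2 and limma-voom called that difference for panobinostat (adjusted p = 0.0458 by DESeq2 and 0.00142 by limma-voom) and for both drugs (0.00908 by DESeq2 and 2.85e-05 by limma-voom), and not for CX-5461 (0.492 by DESeq2 and 0.127 by limma-voom).

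ULBP2 was at 0 in the 3 vehicle and the 3 CX-5461 libraries of MM1.S, and had 2, 1 and 2 counts with panobinostat and 2, 2 and 1 with both drugs. In JJN3 it had a count only with both drugs, 1, 0 and 1. ULBP2 failed the filter on low counts in both lines, so no call is given. ULBP3 was at 0 in all 24 libraries. The other genes of the family, RAET1E and RAET1L, were also at 0 throughout, and RAET1G had 6 counts in all, which came from MM1.S. ULBP2, RAET1L and RAET1G are closely alike in sequence, and how their shared reads were counted is not stated.

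The DNAM-1 ligands went in opposite directions with panobinostat in MM1.S. PVR, the more broadly studied of the pair and also the receptor for poliovirus, had 415, 297 and 481 counts in the MM1.S vehicle libraries and 467, 495 and 569 with CX-5461. It had 158, 155 and 144 counts with panobinostat and 154, 163 and 187 with both drugs. Every library that received panobinostat lay below every library that did not. In CPM the means were 67.8 ± 7.95 (SD, n = 3) for vehicle, 73.2 ± 4.05 for CX-5461, 29.4 ± 1.81 for panobinostat and 31.8 ± 3.80 for both.

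PVR fell by 1.34 ± 0.12 on the log2 scale with panobinostat (SE, edgeR adjusted p = 5.45e-10) and by 1.26 ± 0.12 with both drugs (edgeR adjusted p = 1.28e-09). With CX-5461 alone the change was 0.04 ± 0.11 (edgeR adjusted p = 0.873), and both drugs against panobinostat differed by 0.08 ± 0.13 (edgeR adjusted p = 0.807). Both of these differences lay within the spread between libraries.

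NECTIN2, which is bound by DNAM-1 and also by TIGIT and PVRIG, was near the detection limit in untreated MM1.S. It had 2, 1 and 1 counts with vehicle and 2, 3 and 1 with CX-5461, then 52, 49 and 58 with panobinostat and 68, 89 and 99 with both drugs. All 6 libraries that received panobinostat lay far above the other 6. The means were 0.228 ± 0.0838 CPM (SD, n = 3), 0.290 ± 0.146, 10.2 ± 1.21 and 16.1 ± 2.85.

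The summed NECTIN2 counts gave a ratio to vehicle of 44.6 for panobinostat (95% counting interval 17.1 to 166) and 70.3 for both drugs (27.1 to 260). NECTIN2 passed the filter on low counts through the libraries with panobinostat, and its calls are partly set by that. The fitted rise was 5.23 ± 0.40 on the log2 scale with panobinostat (SE, edgeR adjusted p = 2.18e-11) and 5.85 ± 0.38 with both (edgeR adjusted p = 6.82e-13). CX-5461 alone gave 0.23 ± 0.78 (edgeR adjusted p = 0.896), an estimate that rests on 6 and 4 counts. The 3 libraries with both drugs lay above the 3 with panobinostat alone, a difference of 0.62 ± 0.20 that did not pass the test (edgeR adjusted p = 0.0863).

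In JJN3 NECTIN2 rose as well, from a level that differed more between libraries. It had 13, 3 and 6 counts with vehicle, 8, 10 and 6 with CX-5461, 35, 33 and 28 with panobinostat and 112, 42 and 56 with both drugs. All libraries with panobinostat lay above all those without it, and replicate 1 was the highest of its group both with vehicle and with both drugs. The means were 1.28 ± 1.00 CPM (SD, n = 3), 1.41 ± 0.445, 6.02 ± 0.806 and 11.7 ± 4.02.

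NECTIN2 in JJN3 rose by 2.21 ± 0.44 on the log2 scale with panobinostat (SE, edgeR adjusted p = 0.00143) and by 3.10 ± 0.41 with both drugs (edgeR adjusted p = 1.88e-05). Without vehicle replicate 1 these rises were 2.99 and 3.88. CX-5461 alone gave 0.10 ± 0.53 (edgeR adjusted p = 0.994). Both drugs against panobinostat gave 0.89 ± 0.34 (edgeR adjusted p = 0.222), and with the replicate number as a block, since the numbers pair the libraries of JJN3, it was 0.87 with an edgeR adjusted p of 0.0238.

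PVR changed less in JJN3. It had 233, 243 and 343 counts with vehicle, 199, 212 and 275 with CX-5461, 183, 158 and 241 with panobinostat and 210, 166 and 254 with both drugs. Replicate 3 had the most counts in every group, and the 4 groups overlapped. Within each replicate number, PVR in CPM was lower with each treatment than with vehicle. For panobinostat it was 29.4 against 43.3 in replicate 1, 33.2 against 42.8 in replicate 2 and 47.2 against 51.3 in replicate 3. The mean was 45.8 ± 4.77 CPM (SD, n = 3) with vehicle, 39.8 ± 6.0 with CX-5461, 36.6 ± 9.40 with panobinostat and 37.0 ± 8.94 with both.

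The PVR change in JJN3 was -0.36 ± 0.18 on the log2 scale with panobinostat (SE, edgeR adjusted p = 0.148) and -0.43 ± 0.18 with both drugs (edgeR adjusted p = 0.0651), neither past the threshold. With the replicate number as a block the same changes passed, at -0.37 (edgeR adjusted p = 0.0117) and -0.43 (edgeR adjusted p = 0.00222). Without the third library with both drugs the change was -0.62 (edgeR adjusted p = 0.0182), without vehicle replicate 2 it was -0.51 (0.0476), and for panobinostat without its replicate 3 it was -0.56 (0.0457). With CX-5461 the change was -0.26 ± 0.18 (edgeR adjusted p = 0.955).

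**Figure D2:**
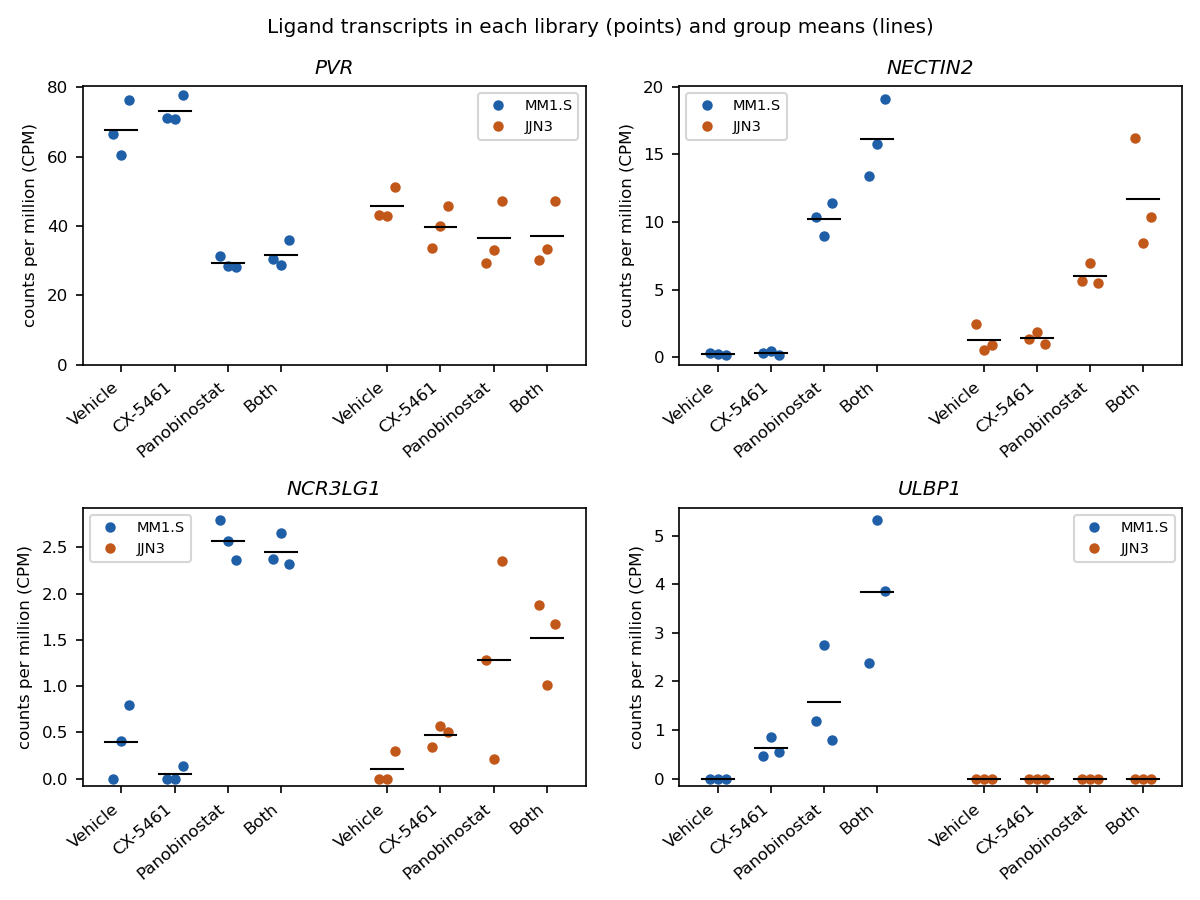
Levels in CPM (y axis, linear) of PVR, NECTIN2, NCR3LG1 and ULBP1 in each of the 24 libraries (points, 3 per group, MM1.S in blue and JJN3 in orange), with a line at each group's mean and the treatment on the x axis. In MM1.S the libraries with panobinostat lie below the others for PVR and above them for NECTIN2 and NCR3LG1, and ULBP1 is at 0 in all 12 JJN3 libraries.

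The NKp30 ligand NCR3LG1 (B7-H6), a B7 family molecule that tumour cells can carry and most normal cells lack, rose with panobinostat in MM1.S at low counts. It had 0, 2 and 5 counts with vehicle, 0, 0 and 1 with CX-5461, 14, 14 and 12 with panobinostat and 12, 15 and 12 with both drugs. The 6 libraries with panobinostat all lay above the other 6 and hardly differed among themselves. Their means were 2.57 ± 0.216 CPM (SD, n = 3) and 2.45 ± 0.183, against 0.400 ± 0.396 for vehicle and 0.0456 ± 0.0790 for CX-5461.

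NCR3LG1 in MM1.S rose by 2.49 ± 0.58 on the log2 scale with panobinostat (SE, edgeR adjusted p = 0.000472) and by 2.39 ± 0.58 with both drugs (edgeR adjusted p = 0.000761). The size depended on the few vehicle counts: for panobinostat it was 3.53 without vehicle replicate 3 and 1.89 without vehicle replicate 1. Both drugs against panobinostat gave -0.10 ± 0.42 (edgeR adjusted p = 0.926). With CX-5461 alone 1 count stood against 7 with vehicle, a ratio of 0.119 (95% counting interval 0.00265 to 0.930) that did not pass the test (edgeR adjusted p = 0.110). It did pass without vehicle replicate 1 (edgeR adjusted p = 0.0391).

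In JJN3 NCR3LG1 had 0, 0 and 2 counts with vehicle, 2, 3 and 3 with CX-5461, 8, 1 and 12 with panobinostat and 13, 5 and 9 with both drugs. In CPM the libraries with CX-5461 and those with both drugs lay above all vehicle libraries, those with CX-5461 by little (lowest 0.339 against a highest of 0.299 CPM with vehicle), while panobinostat replicate 2 overlapped them. NCR3LG1 did not pass the filter on low counts in this line. The summed counts gave a ratio to vehicle of 4.12 (95% counting interval 0.823 to 39.9) for CX-5461, 11.6 (2.83 to 102) for panobinostat and 13.9 (3.49 to 120) for both drugs. Fitted without the filter, the edgeR adjusted p was 0.982 for CX-5461, 0.00526 for panobinostat and 0.00134 for both drugs.

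Panobinostat changed most genes of MM1.S, and the counts of members that follow support nothing on their own, since ULBP1, NCR3LG1 and NECTIN2 passed the filter on low counts through the groups where they are high and PVR alone had ample counts in every group. The same holds for NECTIN2 in JJN3. With panobinostat 4 of the 4 members tested changed in MM1.S, where 69.8% of all 12030 genes tested did. Of them 3 were higher, where 36.9% of all genes were, and 1 was lower, where 32.9% were. With both drugs 4 of 4 changed against 70.2% of all genes, again 3 higher (37% of all genes) and 1 lower (33.2%), and against CX-5461 alone 4 of 4 changed with both drugs against 69.8%. CX-5461 changed 1 of 4, ULBP1, where it changed 16.7% of all genes. Both drugs against panobinostat changed 0 of 4 by edgeR, where 4.08% of all genes changed, and 2 of the 4 (ULBP1 and NECTIN2) had an unadjusted p under 0.05. DESeq2 and limma-voom also called 0.

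In JJN3, 2 members, PVR and NECTIN2, passed the filter. Panobinostat changed 1 of 2, NECTIN2, where it changed 26% of 11411 genes. Both drugs changed 1 of 2 where they changed 39.2%, and against CX-5461 alone 1 of 2 where 34.4% of all genes changed. Both drugs against panobinostat changed 0 of 2 where 0.903% of all genes changed, with NECTIN2 at an unadjusted p under 0.05. CX-5461 changed 0 members and 0% of all genes by edgeR, although 633 genes had an unadjusted p under 0.05, neither member among them, and DESeq2 called 19 genes and limma-voom 0, again without a member. With the replicate block panobinostat changed 2 of 2 members (PVR and NECTIN2) and 41.9% of all genes in JJN3, and both drugs 2 of 2 and 53.5%. Under the same block both drugs against panobinostat changed 1 of 2 (NECTIN2) and 12.3% of all genes, both drugs against CX-5461 1 of 2 (NECTIN2) and 49%, and CX-5461 0 of 2 and 1.38%, which is 157 genes.

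By edgeR, DESeq2 and limma-voom 0 members departed from additivity of the 2 drugs on the log2 scale, that is, from the sum of the changes with each drug alone. In MM1.S the edgeR adjusted p was 0.938 for PVR, 0.884 for NECTIN2, 0.240 for NCR3LG1 and 0.197 for ULBP1, and 5.52% of all genes departed. The departure of NECTIN2 was 0.38 ± 0.92 (SE), so a departure of more than 2-fold in either direction is not excluded by its error. NCR3LG1 (departure 2.58 ± 1.21) and ULBP1 (-3.69 ± 1.59) had an unadjusted p under 0.05. For ULBP1 the test cannot decide additivity, because with 0 counts in the vehicle group its log2 changes have no measured base. In JJN3 no member and 0% of all genes departed by edgeR, with 564 genes at an unadjusted p under 0.05. DESeq2 called 19 genes, limma-voom 0 and edgeR with the replicate block 105 (0.92% of all genes), none of them a member. The departure was 0.19 ± 0.25 for PVR and 0.79 ± 0.64 for NECTIN2.

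**Figure D3:**
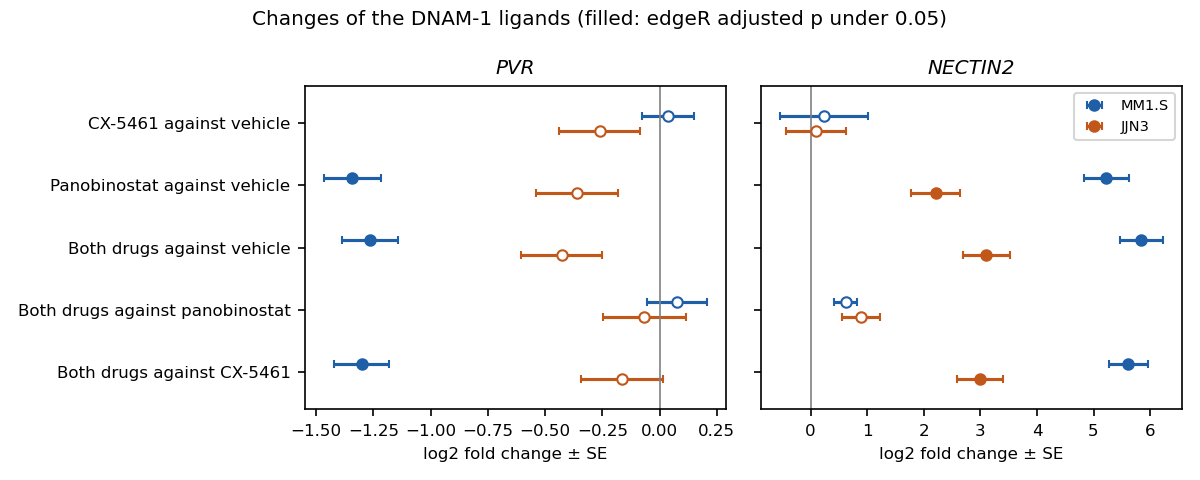
Log2 fold change (x axis, point) with its standard error (bar) of PVR (left) and NECTIN2 (right) in 5 comparisons of treatments (y axis), for MM1.S in blue and JJN3 in orange. Filled points passed the edgeR test. PVR in MM1.S lies near -1.3 in each comparison that adds panobinostat, NECTIN2 is above 2 in both lines there, and the 2 comparisons that add only CX-5461, to vehicle or to panobinostat, hold no filled point.

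The lines differed in untreated cells and in their response. With vehicle, NECTIN2 was 2.31 ± 0.69 higher in JJN3 than in MM1.S on the log2 scale (SE, edgeR adjusted p = 0.00435), and PVR was lower, at -0.60 ± 0.15 (edgeR adjusted p = 0.000704). That made 2 of the 3 members compared (NCR3LG1 is the other), where 63.7% of all 12872 genes differed. ULBP1, at 0 with vehicle in both lines, is left out of this count, while the share of all genes keeps such genes. NECTIN2 and NCR3LG1 passed the filter on low counts through groups with panobinostat, so the count supports nothing on its own. The NECTIN2 difference was 1.56 without JJN3 vehicle replicate 1 (edgeR adjusted p = 0.0726). Line and count table cannot be told apart here, because each line has its own table.

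Panobinostat lowered PVR less in JJN3 than in MM1.S, by a difference of 1.00 ± 0.22 on the log2 scale (SE, edgeR adjusted p = 0.000563), and raised NECTIN2 less, by -2.99 ± 0.74 (edgeR adjusted p = 0.00214). With both drugs the differences were 0.85 ± 0.22 for PVR (edgeR adjusted p = 0.00272) and -2.72 ± 0.73 for NECTIN2 (edgeR adjusted p = 0.00463). For each of these, 2 of the 3 members with a usable standard error differed between the lines, with ULBP1 left out. The share of all genes, which keeps genes like ULBP1, was 33.3% for panobinostat and 32.8% for both drugs. NECTIN2 and NCR3LG1 passed the filter on low counts through groups with panobinostat, so this count supports nothing on its own. Without JJN3 vehicle replicate 1 the NECTIN2 difference was -2.26 for panobinostat (edgeR adjusted p = 0.0291) and -1.99 for both drugs (edgeR adjusted p = 0.0533). For CX-5461 0 of these 3 differed by edgeR, DESeq2 or limma-voom, against 1.32% of all genes, and NCR3LG1 had an unadjusted p of 0.00911.

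The levels of NECTIN2 after panobinostat were closer between the lines than before it, with 10.2 CPM in MM1.S and 6.02 in JJN3. Ordered by mean, NECTIN2 ran from vehicle and CX-5461 in MM1.S, through vehicle and CX-5461 in JJN3, panobinostat in JJN3, panobinostat in MM1.S and both drugs in JJN3, to both drugs in MM1.S. Within each line vehicle and CX-5461 did not differ beyond their spread, and the libraries with both drugs in JJN3 overlapped those of MM1.S with panobinostat and with both drugs. PVR was highest in MM1.S with CX-5461 and with vehicle, which overlapped, and lowest in MM1.S with panobinostat and with both drugs, which overlapped as well. The means of the 4 JJN3 groups lay between, and their libraries overlapped each other and, except for vehicle, those of MM1.S with both drugs. Over the means of the 8 groups, the genes most like NECTIN2 were LOC100505715 (Pearson r = 0.995), CDC37 (0.993) and HABP4 (0.992), and those most like ULBP1 were C1orf35 (0.994), SPSB3 (0.978) and TAF3 (0.978), each over 8 groups that share a panobinostat contrast. ULBP1 was at 0 in 5 of the 8 groups, among them all 4 JJN3 groups. It does not vary over those 4, so no r can be given within JJN3.

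The other ligands that NK cells read as activating or adhesive form a list of 12, of which 10 were tested in MM1.S. There panobinostat lowered 6 and raised 1, where it lowered 32.9% and raised 36.9% of all genes, with a list median of -0.78 on the log2 scale against 0.07 for all genes tested. SLAMF7, the self-ligand that elotuzumab targets in myeloma, fell by 3.95 ± 0.18 (SE, edgeR adjusted p = 8.07e-13), from 1086 ± 54.3 CPM (SD, n = 3) to 77.6 ± 26.1. CD58, the ligand of CD2, fell by 2.21 ± 0.17, and the adhesion molecule ICAM3 fell by 0.97 ± 0.12. TNFSF9, a costimulatory ligand of the TNF family, rose by 3.31 ± 0.25, from 4.04 ± 0.669 CPM to 44.5 ± 14.8. With both drugs the counts were again 1 higher and 6 lower (37% and 33.2% of all genes), and CADM1, the ligand of CRTAM, fell by 0.97 ± 0.09.

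CX-5461 alone in MM1.S raised 3 of the 10 and lowered 1, where it changed 16.7% of all genes. TNFSF9 rose by 3.75 ± 0.24 on the log2 scale (SE, edgeR adjusted p = 1.13e-09), CLEC2B, the ligand of NKp80, by 1.39 ± 0.26, and CD70, the ligand of CD27, by 1.93 ± 0.28, to 765 ± 152 CPM (SD, n = 3) from 191 ± 31.6. CD48, the ligand of 2B4, fell by 0.64 ± 0.18. In JJN3 CX-5461 changed 0 of 10, panobinostat raised 2 and lowered 2 (26% of all genes changed), and both drugs raised 2 and lowered 5 (39.2%). There TNFSF9 rose by 0.55 ± 0.16 with panobinostat and 1.25 ± 0.15 with both, while ICAM1, the ligand of LFA-1, fell by 1.17 ± 0.25 and 1.54 ± 0.25. The list median in JJN3 was -0.16 with panobinostat and -0.47 with both drugs, against 0.01 and 0.005 for all genes. PDGFD, raised in JJN3 by panobinostat and by both drugs, had 2 counts with vehicle there, 23 with panobinostat and 31 with both. It passed the filter on low counts through those treated groups, so these counts of raised genes are partly set by the filter. The JJN3 counts of this list and of the following lists come from the fit without the replicate block. With the block the share of all genes changed in JJN3 was 41.9% for panobinostat and 53.5% for both drugs.

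Ligands of inhibitory receptors formed a list of 16, of which 6 are HLA genes in the sparsely counted stretch of chromosome 6. In MM1.S 8 were tested, of which panobinostat raised 4 and lowered 2 (36.9% and 32.9% of all genes), with a list median of 0.41 on the log2 scale against 0.07 for all genes. The relatives of the DNAM-1 ligands split: NECTIN3, a partner of PVR and NECTIN2 in cell adhesion, rose by 0.78 ± 0.11 (SE, edgeR adjusted p = 1.29e-06), and NECTIN1 fell by 1.62 ± 0.14. NECTIN4, a ligand of TIGIT, had no count with vehicle and was at least 5.23-fold higher with panobinostat and at least 24.0-fold higher with CX-5461. NECTIN4 passed the filter on low counts only through treated libraries, and the counts of this list in MM1.S are partly set by that. CD274 (PD-L1) rose by 1.51 ± 0.36, CLEC2D, the ligand of CD161, by 1.32 ± 0.22, and PDCD1LG2 (PD-L2) fell by 1.39 ± 0.39.

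With both drugs the inhibitory list again had 4 higher and 2 lower in MM1.S (37% and 33.2% of all genes). With CX-5461 it had 3 higher and 0 lower, where 16.7% of all genes changed. NECTIN3 was among the 3, at 0.61 ± 0.11 on the log2 scale. In JJN3 7 were tested, and panobinostat and both drugs each raised 1, NECTIN3 (0.66 ± 0.16 and 0.95 ± 0.15), and lowered 1, NECTIN1 (-1.13 ± 0.13 and -1.56 ± 0.13). Of all genes in JJN3, panobinostat changed 26% and both drugs 39.2%. CX-5461 changed 0 of the 7 and 0% of all genes.

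**Figure D4:**
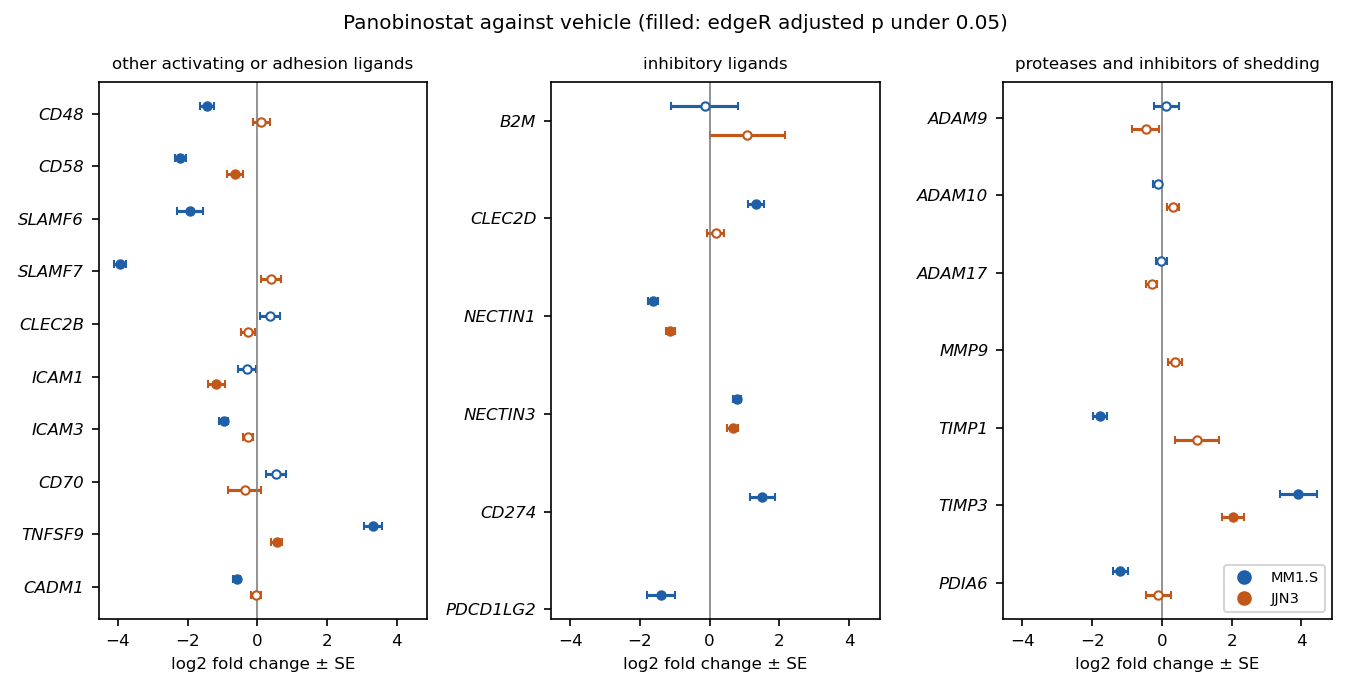
Log2 fold change (x axis, point) with its standard error (bar) for panobinostat against vehicle, for other activating or adhesion ligands (left), inhibitory ligands without the HLA genes (middle) and shedding enzymes with their inhibitors (right), MM1.S in blue and JJN3 in orange. Filled points passed the edgeR test, and genes tested in a line are shown where its vehicle libraries held more than 3 counts. SLAMF7 at -3.95 and TIMP3 at 3.91, both in MM1.S, lie farthest from 0.

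Several NKG2D and NKp30 ligands are cut from the cell surface by metalloproteases. Of 9 shedding genes 7 were tested in each line. Panobinostat raised 2 and lowered 2 in MM1.S, where it changed 69.8% of all genes (list median -0.02 against 0.07 for all genes, log2 scale). In JJN3 it raised 1, where it changed 26% of all genes. TIMP3, an inhibitor of these proteases, rose in both lines, by 3.91 ± 0.54 in MM1.S (SE, edgeR adjusted p = 5.05e-07) and 2.05 ± 0.32 in JJN3. MMP9 had no count with vehicle in MM1.S and was at least 43.4-fold higher with panobinostat, whereas in JJN3 it stood at 32.7 ± 9.45 CPM (SD, n = 3) with vehicle and 43.1 ± 5.56 with panobinostat, a change that did not pass. In MM1.S MMP9 and TIMP3 passed the filter on low counts through libraries with panobinostat. The counts of raised genes there therefore support nothing on their own. TIMP1 fell by 1.78 ± 0.20 and PDIA6, a disulfide isomerase that takes part in MICA shedding, by 1.19 ± 0.22 in MM1.S. The sheddases ADAM10 and ADAM17 gave -0.12 ± 0.13 and -0.02 ± 0.16 there with panobinostat. With both drugs ADAM10 fell by 0.56 ± 0.13 in MM1.S and ADAM17 by 0.90 ± 0.17 in JJN3, where 3 genes rose and 1 fell, against 2 and 3 in MM1.S. The 3 that rose in JJN3 were TIMP3 (2.56 ± 0.31), MMP9 (0.64 ± 0.19, edgeR adjusted p = 0.0124) and TIMP1 (1.55 ± 0.59, edgeR adjusted p = 0.0464). TIMP1 had only 13 counts with vehicle in JJN3, and with both drugs in MM1.S it fell. Of all genes, both drugs changed 39.2% in JJN3 and 70.2% in MM1.S. CX-5461 changed 0 of 7 in either line, where it changed 16.7% of all genes in MM1.S and 0% in JJN3.

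The partners of BAG6 outside the chromosome 6 stretch were measured. Of 7 genes of its complex and of the tail-anchored protein pathway, panobinostat raised 3 and lowered 2 in MM1.S, where 69.8% of all genes changed, and raised 2 and lowered 1 in JJN3, where 26% did. UBL4A, which binds BAG6 in that complex, fell by 1.57 ± 0.11 on the log2 scale in MM1.S (SE, edgeR adjusted p = 2.34e-12) and by 0.68 ± 0.14 in JJN3. GET4, the other partner, rose by 0.65 ± 0.11 and 0.52 ± 0.14. The list median was 0.38 in MM1.S against 0.07 for all genes, and 0.10 in JJN3 against 0.01. With both drugs 4 rose and 2 fell in MM1.S (70.2% of all genes changed) and 2 rose and 1 fell in JJN3 (39.2%). CX-5461 raised GET4 and lowered GET1 in MM1.S (16.7% of all genes changed) and changed 0 of 7 in JJN3 (0%).

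Genes reported elsewhere to regulate these ligands were listed as well (22, all tested in MM1.S and 21 in JJN3). In MM1.S panobinostat lowered 14 and raised 6, where it lowered 32.9% and raised 36.9% of all genes, with a list median of -0.75 on the log2 scale against 0.07 for all genes. XBP1, a plasma cell and stress response factor, fell by 3.87 ± 0.11 (SE, edgeR adjusted p = 3.54e-19), and the lymphoid factors IKZF1 and IKZF3 fell by 3.15 ± 0.12 and 2.23 ± 0.13. HDAC3, one of the targets of panobinostat, rose by 1.02 ± 0.09 and the transcription factor SP1 by 1.00 ± 0.12. With both drugs 6 were again raised and 14 lowered (37% and 33.2% of all genes). CX-5461 raised 4 and lowered 3 in MM1.S, where it changed 16.7% of all genes. CHEK1, a checkpoint kinase, was at 0.48 ± 0.12 and IRF4, a survival factor of myeloma, at -1.26 ± 0.11. In JJN3 CX-5461 changed 0 of the list and 0 of 11411 genes. Panobinostat raised 1 and lowered 4 there, where it raised 1716 and lowered 1248 of 11411 genes. Both drugs raised 2 and lowered 8 (2400 and 2072 of 11411 genes). IKZF1 rose there by 0.73 ± 0.23 with panobinostat, and SP1 gave -0.22 ± 0.19.

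Plasma cell markers changed in several of the same comparisons. Panobinostat lowered 9 of 10 in MM1.S, where 32.9% of all genes fell, and both drugs 10 of 10 (33.2% of all genes). CX-5461 lowered 5 of 10, where 849 of 12030 genes fell, and both drugs against panobinostat 2 of 10 (198 of 12030 genes). In JJN3 9 were tested, of which panobinostat lowered 5, where 1248 of 11411 genes fell. Both drugs lowered 6 and raised 1 there (2072 and 2400 of 11411 genes). Both drugs against panobinostat lowered 4 (82 of 11411 genes), and CX-5461 changed 0 of 9 and 0 of 11411. The summed level of the 10 was 8510 to 8980 CPM in the vehicle libraries of MM1.S, 6980 to 7770 with CX-5461, 1100 to 1370 with panobinostat and 1040 to 1190 with both. In JJN3 it was 4080 to 5080, 3960 to 5050, 3280 to 3930 and 2710 to 3240. The summed NK cell markers rose in MM1.S from 11.3 to 15.1 CPM with vehicle to 192 to 252 with panobinostat, of which NCAM1 (CD56) made up 220 ± 30.4 (SD, n = 3), while NCR1 and NKG7 stayed at 0 in all 12 libraries. The part of these markers in the ligand results was not tested.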

How the data were processed

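RNA of 24 libraries (2 lines, 4 treatments, 3 replicates) was sequenced from polyA RNA. The labels name both a TruSeq kit and 3′ RNA-seq. For each line the authors deposited raw counts, whole numbers per NCBI Gene identifier that were not normalized. HISAT2 2.2.1, featureCounts 2.0.1, limma 3.50.0, hg19 and GRCh37 are named, without their roles, per the submitters' processing notes. The strand setting and the handling of shared reads were not given in the sources used here, so overlapping and antisense genes cannot be told apart. The labels of the JJN3 CX-5461 libraries vary in the drug's number, and their titles and protocols, which give CX-5461, were followed.

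Symbols came from a table on GRCh38.p14: 27745 of 28395 identifiers matched, and the other 650 held at most 0.0387% of a library's counts. edgeR 4.0.16 (R 4.3.3; TMM, filterByExpr, robust quasi-likelihood fit) was run per line on 12 libraries in 4 groups (8 residual degrees of freedom), and on 24 libraries in 8 groups for differences between lines, with Benjamini-Hochberg adjustment over all genes tested. Alternatives were library size alone, DESeq2 size factors, DESeq2 1.42.0, limma-voom (limma 3.58.1), no filter, the replicate block, each library left out and, added after seeing the data, JJN3 numbers 1 and 3 alone. Replicate numbers of JJN3 pair the libraries: the deviations of same-numbered libraries correlated at 0.20 to 0.48 in all 18 pairs of libraries, above the limit of 0.1. In MM1.S 6 of 18 pairs exceeded it. No 2 replicates agreed within sampling noise (chi-square per gene 4.09 to 14.3).

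The members and lists (other NKG2D ligands, other activating ligands, inhibitory ligands, shedding, BAG6 complex, regulators, NK receptors, cell markers) were chosen with earlier results of these data known. Some items are not reported here. From each list and treatment, up to 3 genes called in each direction with the smallest adjusted p are named, without naming every one again. ADAM10, ADAM17, MMP9 in JJN3 and SP1 in JJN3 are given beside them. Likeness was Pearson's r over group means of log2 CPM, for the 2 members with the largest range, among genes whose average log2 CPM was 3 or more.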

Additional observations from a re-analysis of the deposited data

Results flagged for a closer look

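The effect of panobinostat and of both drugs on the DNAM-1 ligands differed between the lines by the interaction term of the 24-library edgeR fit. For PVR the difference, JJN3 minus MM1.S, was 1.00 on the log2 scale with panobinostat (3 of 3 treated MM1.S libraries below all vehicle libraries, overlap in JJN3) and 0.85 with both drugs. For NECTIN2 it was -2.99 with panobinostat and -2.72 with both drugs, although all treated libraries lay above all vehicle libraries in either line. The NECTIN2 values start from vehicle groups with 4 counts in MM1.S and 22 in JJN3.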

How the results depend on the processing

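Of the comparisons between treatments, the number of members called did not move under library size alone, DESeq2 size factors, DESeq2 or limma-voom, while for the line differences with panobinostat and with both drugs DESeq2 and limma-voom called 3 in place of 2 (ULBP1 added). With the replicate block it moved only in JJN3: from 1 to 2 for panobinostat, 1 to 2 for both drugs and 0 to 1 for both drugs against panobinostat; the block changed no other call. Without the filter panobinostat had 5 in MM1.S (MICA added, 11 of whose counts lie in 1 library), and JJN3 had 2 for panobinostat and 3 for both drugs, and with JJN3 numbers 1 and 3 alone 2 and 2. Leaving out single libraries gave 0 to 1 for CX-5461 in MM1.S, 1 to 2 for panobinostat and 1 to 3 for both drugs in JJN3, 1 to 2 for the line difference with both drugs and 1 to 3 for the vehicle difference between lines. The causes were not tested.

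Direction reversed only in differences that passed no test. For PVR, both drugs against panobinostat gave 0.0156 in JJN3 with library size alone, and -0.25 to 0.13 in JJN3 and -0.0329 to 0.15 in MM1.S when single libraries were left out. CX-5461 gave -0.0334 to 0.11 for PVR in MM1.S, -0.13 to 0.57 for NECTIN2 in MM1.S and -0.25 to 0.91 for NECTIN2 in JJN3 (-0.50 with numbers 1 and 3 alone). The line difference with CX-5461 for NECTIN2 was 0.24 with limma-voom and -0.48 to 0.66 without single libraries. For NCR3LG1 the line difference with panobinostat was -0.0777 with limma-voom and -0.28 to 3.41 without single libraries, and with both drugs -0.0166 to 3.69. Departures from additivity ran from -0.0230 to 1.14 for NECTIN2 in JJN3 and -0.0696 to 0.11 for PVR in MM1.S. All are log2 values.

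Library size alone moved the median of all genes from 0.07 to 0.20 in MM1.S with panobinostat, 0.06 to 0.24 with both drugs, and 0.005 to 0.12 in JJN3 with both drugs; no member's call changed. Depth limits ULBP1, ULBP2, ULBP3, NCR3LG1 and, in untreated MM1.S, NECTIN2, and no depth statement can be made for MICA, MICB and BAG6.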

Other observations

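Receptors that bind these ligands on lymphocytes had transcripts in the myeloma lines themselves. Of 6 such genes, KLRK1 (NKG2D) was at 0 in all 24 libraries, and 2 were tested in each line. NCR3 (NKp30) was listed at 0 as well, but it lies in the sparsely counted stretch of chromosome 6 and cannot be read as a level. CD226 (DNAM-1), the activating receptor of PVR and NECTIN2, had 80 counts over the 12 MM1.S libraries and 15 over the 12 of JJN3. TIGIT, the inhibitory receptor of PVR and NECTIN2, stood at 24.8 ± 1.74 CPM (SD, n = 3) in MM1.S with vehicle, 17.3 ± 1.28 with CX-5461, 2.28 ± 0.956 with panobinostat and 1.37 ± 0.588 with both drugs. It fell by 0.59 ± 0.18 on the log2 scale with CX-5461 (SE, edgeR adjusted p = 0.022), by 3.59 ± 0.25 with panobinostat, and with both drugs it fell by 4.32 ± 0.27. In JJN3 TIGIT fell as well, by 1.34 ± 0.32 with panobinostat and by 2.18 ± 0.34 with both, from 9.16 ± 1.38 CPM. PVRIG, the inhibitory receptor of NECTIN2, stood at 29.9 ± 4.10 CPM in MM1.S with vehicle and at 0.902 ± 0.416 with panobinostat, a fall of 5.15 ± 0.26 (edgeR adjusted p = 4.85e-15). It had 19 counts over the 12 JJN3 libraries. CD96, a receptor of PVR, had 2698 counts over the 12 JJN3 libraries and 1 over the 12 of MM1.S.

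Markers of other cell types moved in single genes. ITGAM, an integrin of myeloid and NK cells, had no count in the MM1.S vehicle libraries and was at least 42.6-fold higher with CX-5461. FCGR3A, listed here among the myeloid markers though not limited to myeloid cells, was at 0 in all 24 libraries. COL1A1, a collagen gene of stromal cells, had 4 counts with vehicle in MM1.S and 215 with panobinostat, and 0 and 32 in JJN3. Summed B cell markers lay between 0 and 0.611 CPM in MM1.S with vehicle and between 3.36 and 6.56 with both drugs. Summed T cell markers lay between 0.916 and 5.17 CPM in the MM1.S libraries, and CD3D was at 0 in all 24 libraries. In JJN3 the sum was 1.06 to 3.35 CPM with vehicle, 4.41 to 5.84 with CX-5461, 4.42 to 6.86 with panobinostat and 5.24 to 9.29 with both drugs, each treated group above vehicle. TRAC, the constant segment of the T cell receptor alpha chain and the 1 marker tested there, rose by 1.82 ± 0.42 on the log2 scale with panobinostat (SE, edgeR adjusted p = 0.00417) and by 2.02 ± 0.41 with both drugs (edgeR adjusted p = 0.000866).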
